A study of Mus musculus with 4 samples.

Results

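The 37 genes described here encode the TGF-beta and BMP signalling system, from ligands and receptors to the Smad proteins and their regulators. They were taken by symbol from a list that was chosen with earlier results of these data known. Shares of members beside shares of all genes are therefore descriptions only. Every symbol was looked up in 2 tables of mouse T cell RNA sequencing. All 37 had a row among the 23259 usable genes of the vector table, and 24 had a row among the 10663 usable genes of the dextran sulfate sodium (DSS) table, which holds genes above 1 FPKM in at least 1 library. FPKM, the number of fragments per kilobase of transcript scaled to the size of the library, is a level corrected for transcript length, so levels of different genes can be set side by side within a library.

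The series holds 4 libraries in 2 experiments, with 1 library in each group. The first measured splenic regulatory T cells (Treg), purified as human CD2-positive cells from Balb/c mice carrying the Foxp3-hCD2 reporter, either untreated or after 7 days of drinking 3% DSS in water, an agent that injures the colon lining. The second used wild-type C57BL6 mice, whose naive CD4 T cells received a mock vector or one encoding Sox12, a SOX family transcription factor. Both Treg groups carry the reporter, and purity rests on it. Both groups of the second experiment were transduced. The series title concerns Treg induced by Sox12. The labels give neither the number or pooling of mice, nor their age, nor the culture conditions after transduction. With 1 library per group there is no replicate check and no test across samples was possible, so both values are given for each difference.

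TGF-beta is made as a precursor that is cleaved by furin-type proteases and secreted in a latent complex. Once active, the ligand brings together type II and type I receptor kinases, which phosphorylate receptor-regulated Smads. Smad2 and Smad3 serve TGF-beta and activin, Smad1 and Smad5 serve BMPs, and all of these join Smad4 in the nucleus. In T cells TGF-beta restrains effector programmes and induces Foxp3, the lineage transcription factor of Treg, for which Smad3 binds an enhancer of the Foxp3 gene.

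Because Sox12 binds DNA, the sequence upstream of the transcript start is shown for 4 of the 6 members past the 2 times rule between the vector libraries. That rule, given below, adds 1 FPKM to each value. Members outside it, such as Bmpr1a and Smad5, can therefore have FPKM ratios above 2 (2.38 and 2.36). Tgfbr1 has 2 starts, of which the upstream one is shown, and Tgif1, with 5, is left out. Each is the stretch of 250 bases before a RefSeq start in build GRCm38.p6, 5′ to 3′ on the strand of the gene. Capitals mark ACAAAG, a core of SOX factor recognition, on either strand, so that CTTTGT is the same motif read on the other strand. ACAATG, another SOX motif, and CAGAC, a Smad motif, were also searched on both strands and have no match in these 4 windows. ACAATG shares its first 4 letters with ACAAAG, and a CAGAC followed by AAAG would overlap ACAAAG.

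Smad3, chr9:63757995-63758244, minus strand: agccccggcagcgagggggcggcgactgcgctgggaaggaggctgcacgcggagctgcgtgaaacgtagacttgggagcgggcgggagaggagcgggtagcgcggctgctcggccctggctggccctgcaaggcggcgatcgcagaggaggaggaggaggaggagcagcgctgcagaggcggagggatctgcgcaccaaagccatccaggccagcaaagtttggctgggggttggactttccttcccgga

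Smad1, chr8:79399429-79399678, minus strand: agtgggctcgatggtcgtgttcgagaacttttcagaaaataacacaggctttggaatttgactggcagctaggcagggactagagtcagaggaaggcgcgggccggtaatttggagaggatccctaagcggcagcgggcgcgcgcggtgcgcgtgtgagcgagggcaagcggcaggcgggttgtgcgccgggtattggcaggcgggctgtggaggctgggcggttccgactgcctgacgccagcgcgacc

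Tgfbr1, chr4:47352972-47353221, plus strand: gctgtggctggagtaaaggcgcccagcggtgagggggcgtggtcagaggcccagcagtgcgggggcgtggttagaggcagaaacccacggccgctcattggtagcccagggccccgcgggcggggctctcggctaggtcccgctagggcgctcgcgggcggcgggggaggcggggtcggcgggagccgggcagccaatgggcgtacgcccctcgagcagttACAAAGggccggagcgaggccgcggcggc

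Inhba, chr13:16011601-16011850, plus strand: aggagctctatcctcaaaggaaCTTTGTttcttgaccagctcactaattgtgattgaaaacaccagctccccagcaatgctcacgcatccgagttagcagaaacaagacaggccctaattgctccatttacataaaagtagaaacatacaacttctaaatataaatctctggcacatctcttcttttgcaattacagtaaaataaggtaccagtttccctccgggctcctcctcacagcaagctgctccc

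The Smad3 and Smad1 windows are rich in G and C (69.2% and 63.6%) and hold 22 and 25 CpG dinucleotides. The Tgfbr1 window is similar, with 74.8% and 29 CpG, and has ACAAAG. The Inhba window differs, with 43.2% and 3 CpG, and has the same motif on the other strand. Windows of 27 members were used, 39 in all, because some genes have several starts. Member windows on chromosome 18 were left out, whereas the windows they are set beside keep that chromosome. ACAAAG occurred in 11 of the 39 windows (28.2%) and in 16.5% of all 32851 windows of the table. ACAATG occurred in 1 (2.56%, against 10.7%) and CAGAC in 18 (46.2%, against 42.2%). In the 9864 windows of genes past the filter in the vector experiment, whose median of 16 CpG is nearer to the 22 of the member windows than the 6 of all windows, the shares were 12.3% for ACAAAG, 5.98% for ACAATG and 40.2% for CAGAC. The member shares, unlike these, include members below that filter. Acvr2b, Eng, Ltbp1, Tgfb2 and Zfyve9 are such members with ACAAAG, so these shares are not of like sets. A match is a description of letters and shows no binding. No window was used for Tgfb3, Tgfbr3, Acvrl1, Smad2, Smad4, Smad7, Skil, Pmepa1, Trim33 and Bambi.

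All 10 genes of a T cell identity list were above 1 FPKM in each library, from 54.0 to 473 FPKM in the Treg libraries, where Foxp3 had 88.2 FPKM without treatment and 84.9 FPKM after DSS. Transduced cells held 20.9 FPKM of Foxp3 with mock and 127 FPKM with Sox12. Sox12 itself had 1.56 and 829 FPKM there. In the Treg libraries Sox12 had 0.715 and 1.52 FPKM. The depth of the vector libraries, read from the values of genes with very few fragments, came to about 41.9 and 44.9 fragments per kilobase for each FPKM. The depth of the Treg libraries is unknown. Counting intervals (95%) cover counting error only, not differences between cultures or preparations. In bulk RNA, fewer cells of a type and less RNA per cell cannot be told apart.

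In transduced CD4 T cells the 5 signal-transducing Smads among the members and 2 type I receptors were higher with the Sox12 vector. The activin subunit gene Inhba, the coreceptor gene Tgfbr3 and the receptor gene Acvrl1 were lower. Smad3 had 4.50 and 15.7 FPKM with mock and Sox12, Tgif1 had 17.9 and 47.6 FPKM, and Inhba had 11.6 and 2.77 FPKM. The 2 times rule asks for a difference of log2(FPKM + 1) of 1 or more in size, among genes that average 1 FPKM or more over the pair of libraries. By this rule 4 of the 27 members were higher (Smad3, Tgif1, Smad1 and Tgfbr1), against 4.85% of the 10822 genes past the filter, and 2 were lower (Inhba and Tgfbr3), against 1.91%. With a rule of 1.5 times, 8 members were higher (10.1% of all genes) and 3 were lower (6.88%). Among these, Acvr2a, counted as higher, passed the filter through the Sox12 library alone. Acvrl1, counted as lower, passed it through the mock library alone. Of the 27 members, 18 were higher and 9 lower by any amount, against 48.9% of all genes higher. With the 75th percentiles of the libraries made equal, the split was 15 higher and 12 lower. With a pseudocount of 5 in place of 1, Smad3, Tgif1 and Inhba passed the 2 times rule and Smad1 (0.80), Tgfbr1 (0.82) and Tgfbr3 (-0.71) did not, and with 0.1 the members counted as higher were 7. The median difference of the 27 members was 0.17 on the log2(FPKM + 1) scale, and that of all genes was -0.01. The median size of the difference regardless of sign was 0.46 in the members and 0.22 in all genes. The other 10 members were below the filter.

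**Figure D1:**
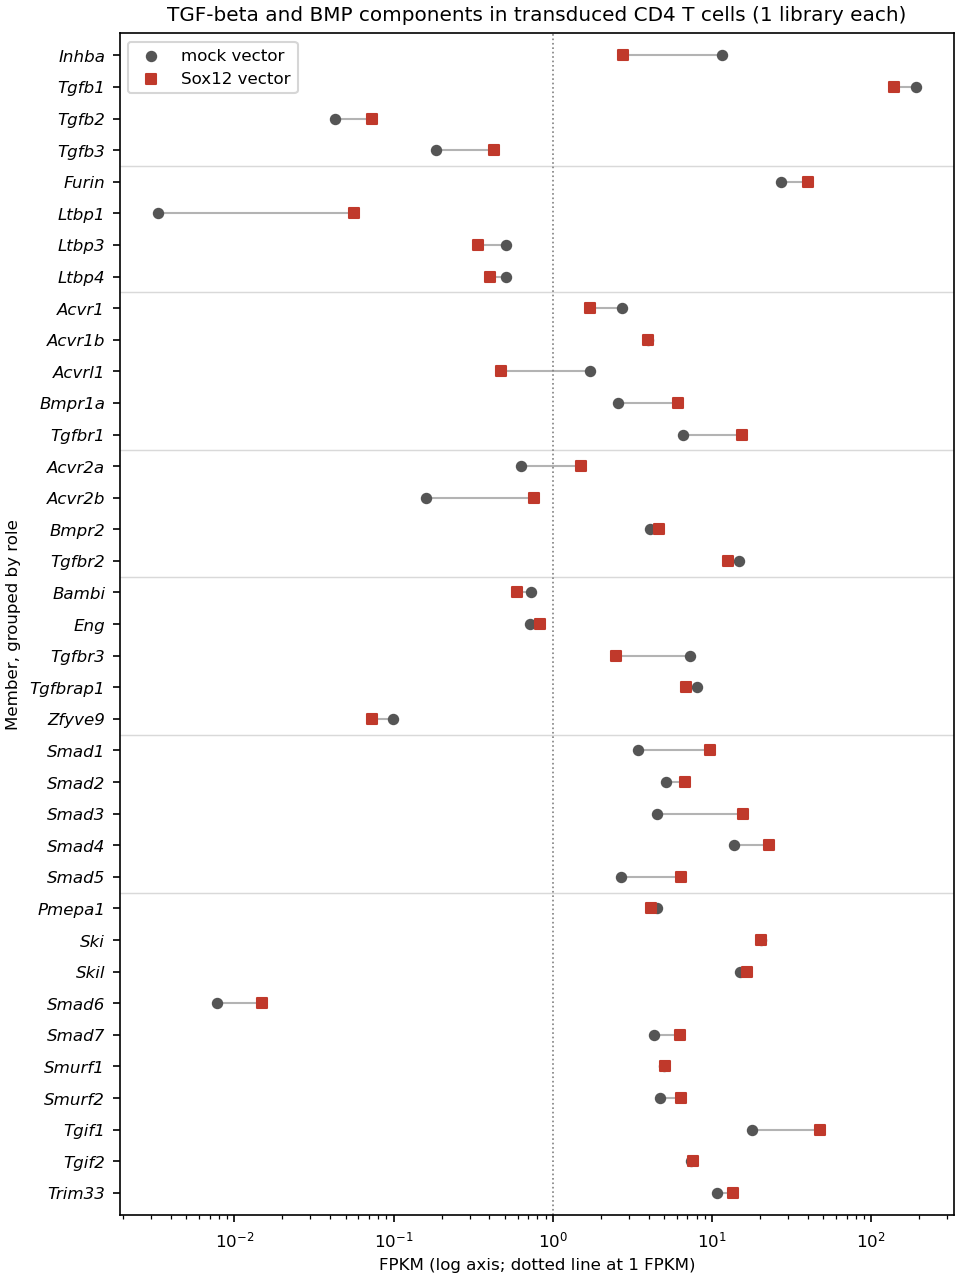
Level of each of the 37 members in FPKM (log axis) in the mock vector library (grey circles) and the Sox12 vector library (red squares), grouped by role from ligands at the top to inhibitors and corepressors at the bottom, with 1 library each and a dotted line at 1 FPKM. All 5 Smads of the group that begins with Smad1 lie further right with the Sox12 vector, while Inhba, Acvrl1 and Tgfbr3 lie further left.

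Among the ligands, Tgfb1, the main TGF-beta of lymphocytes, was the most abundant member in both vector libraries. It had 191 FPKM in mock-vector cells and 138 FPKM in Sox12-vector cells, a ratio of 0.726 (95% counting interval 0.710 to 0.743). Inhba, whose product forms activin A, had 11.6 FPKM in mock-vector cells and 2.77 FPKM in Sox12-vector cells, a ratio of 0.239 (0.216 to 0.264) and a difference of -1.74 on the log2(FPKM + 1) scale. It ranked 48 from the lowest among the 10822 genes. Both ligands were thus lower with Sox12, Inhba by more than Tgfb1. Tgfb2 was close to absent at 0.0431 and 0.0731 FPKM, about 8 and 14 fragments. Tgfb3 had 0.184 and 0.429 FPKM, about 26 and 65 fragments, and remained far below Tgfb1.

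Of the proteins that process or store ligand, Furin, the protease that cleaves the TGF-beta precursor, had 27.1 FPKM in mock-vector cells and 39.8 FPKM in Sox12-vector cells (ratio 1.47, counting interval 1.42 to 1.52). The latent TGF-beta binding proteins, which tether the latent complex to matrix, were low in both libraries. Ltbp3 had 0.506 and 0.341 FPKM, and Ltbp4 had 0.506 and 0.401 FPKM. Ltbp1 had 0.00330 and 0.0566 FPKM, which correspond to about 1 and 14 fragments, so that its ratio of 17.2 has a counting interval from 1.99 to 552.

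The type I receptors, the kinases that phosphorylate Smads, differed in both directions. Tgfbr1, the type I receptor of TGF-beta, had 6.55 FPKM in mock-vector cells and 15.3 FPKM in Sox12-vector cells (ratio 2.34, counting interval 2.13 to 2.57). Bmpr1a, a BMP receptor, had 2.56 and 6.09 FPKM (ratio 2.38, 2.13 to 2.68), and its difference of 0.996 lay just under the size rule. Acvr1b, the type I receptor of activin, was nearly equal at 3.97 and 3.94 FPKM. Acvr1, another BMP and activin receptor, had 2.71 and 1.70 FPKM. Acvrl1, a receptor best known from endothelium, had 1.72 and 0.471 FPKM (ratio 0.274, 0.191 to 0.395). Tgfbr1 and Bmpr1a were therefore the higher ones, and Acvr1 and Acvrl1 the lower ones, so the BMP receptors Bmpr1a and Acvr1 differed in opposite directions.

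Type II receptors bind ligand and activate the type I partner. Tgfbr2, the type II receptor of TGF-beta, had 14.8 FPKM in mock-vector cells and 12.5 FPKM in Sox12-vector cells (ratio 0.843, counting interval 0.804 to 0.884). Since Tgfbr1 differed the other way, the ratio of Tgfbr2 to Tgfbr1 was 2.26 with mock and 0.816 with Sox12. Bmpr2, the BMP type II receptor, had 4.05 and 4.66 FPKM. The activin type II receptors were low but higher with Sox12. Acvr2a had 0.632 and 1.502 FPKM (ratio 2.38, 1.96 to 2.88). Acvr2b had 0.159 and 0.759 FPKM, about 14 and 71 fragments (ratio 4.77, 2.64 to 9.09). Acvr2b was below the filter, and Acvr2a and Acvrl1 passed it through 1 library alone.

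Of the coreceptors and receptor adaptors, Tgfbr3, or betaglycan, which presents ligand to the receptors and also binds inhibin, had 7.28 FPKM in mock-vector cells and 2.49 FPKM in Sox12-vector cells (ratio 0.342, counting interval 0.312 to 0.373). It ranked 119 from the lowest. Tgfbrap1, a receptor-associated adaptor, had 8.05 and 6.86 FPKM. Eng, or endoglin, had 0.717 and 0.828 FPKM, and Bambi, a pseudoreceptor without kinase activity, had 0.725 and 0.598 FPKM. Zfyve9, which recruits Smad2 and Smad3 to receptors on endosomes, had 0.0991 and 0.0735 FPKM. Apart from Tgfbr3 and Tgfbrap1, this group was thus below 1 FPKM in both libraries.

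The receptor-regulated Smads and Smad4 formed the role in which every member was higher with the Sox12 vector, 5 of 5, beside 48.9% of all genes. Their summed level was 29.6 FPKM with mock and 61.4 FPKM with Sox12. Smad9, a receptor-regulated Smad that is not a member, was below the filter at 0.0587 and 0.008 FPKM. Smad3 had 4.50 FPKM in mock-vector cells and 15.7 FPKM in Sox12-vector cells, a ratio of 3.50 (counting interval 3.25 to 3.76), and ranked 205 from the highest among all genes. Smad1 had 3.42 and 9.66 FPKM (ratio 2.82, 2.55 to 3.13). Smad5, the close relative of Smad1, had 2.70 and 6.37 FPKM (ratio 2.36, 2.13 to 2.62), with a difference of 0.995 just under the size rule. Smad4, the common partner, had 13.8 and 22.8 FPKM (ratio 1.65), and Smad2 had 5.17 and 6.76 FPKM (ratio 1.31). Smad2 and Smad3, which serve the same receptors, therefore stood in the opposite order in the 2 libraries. The level of Smad3 was 0.871 times that of Smad2 with mock and 2.32 times with Sox12. In the Treg libraries that ratio was 2.94 without treatment and 2.81 with DSS. The tables were made separately from mice of different strains, and this ratio was chosen after its values were seen.

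Apart from Tgif1, members of the inhibitory arm past the filter were less than 1.5 times higher, nearly level or, for Pmepa1, slightly lower. The summed level of the arm was 90.01 FPKM with mock and 128 FPKM with Sox12. Tgif1 alone made up 17.9 and 47.6 FPKM of these sums. Tgif1, a homeodomain corepressor of Smad2 and Smad3, had the widest difference, with 17.9 FPKM in mock-vector cells and 47.6 FPKM in Sox12-vector cells (ratio 2.65, counting interval 2.48 to 2.85). Its paralogue Tgif2 had 7.39 and 7.55 FPKM. The corepressors Ski (20.3 and 20.4 FPKM) and Skil (15.1 and 16.7 FPKM) differed by little. Smad7, the inhibitory Smad that TGF-beta itself induces, had 4.30 and 6.26 FPKM (ratio 1.46). Smad6, the inhibitory Smad of the BMP branch, had 0.00783 and 0.0149 FPKM, about 1 fragment in each library, so no ratio is given. The ubiquitin ligases Smurf1 (4.99 and 5.07 FPKM) and Smurf2 (4.72 and 6.34 FPKM, ratio 1.34) target Smads and receptors for degradation. Trim33, a ubiquitin ligase that acts on Smad4, had 10.8 and 13.6 FPKM (ratio 1.26), and Pmepa1, a TGF-beta-induced protein that sequesters Smads, had 4.48 and 4.12 FPKM. Of the 9 members of this role past the filter 8 were higher and 1 was lower, beside 48.9% of all genes higher. Tgif1 alone passed the 2 times rule. Ski, Tgif2 and Smurf1, counted as higher, were level, with counting intervals of the ratio that include 1 (0.964 to 1.04, 0.931 to 1.12 and 0.934 to 1.10). The interval of Pmepa1, counted as lower, also includes 1 (0.835 to 1.01).

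Cell type markers also differed between the vector libraries. Of 10 NK and CD8 T cell markers, 9 passed the filter and all 9 were higher with Sox12, beside 48.9% of all genes. The 10 markers summed to 144 and 482 FPKM. By the 2 times rule 6 were higher, beside 4.85% of all genes. Among those 6, Cd8a (0.580 and 5.58 FPKM) and Klrb1c (0.923 and 3.87 FPKM) passed the filter through the Sox12 library alone. All 10 T cell identity genes were lower, with sums of 3060 and 2304 FPKM. Of 10 macrophage and monocyte markers with a row, 3 passed and were higher (sums 24.5 and 80.2 FPKM), mainly through Fcer1g at 18.8 and 67.1 FPKM. Of the others that passed, Tyrobp had 2.33 and 9.18 FPKM and Cd68 was nearly level at 3.04 and 3.24 FPKM. Csf1r was at 0 in both libraries, and Lyz2 had 0.0254 and 0.0242 FPKM. The 8 endothelial markers summed to 12.3 and 44.1 FPKM, nearly all of it Pecam1, which T cells can also express, and Tek and Emcn were at 0 in both. The part of these markers in the differences of the members was not tested.

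**Figure D2:**
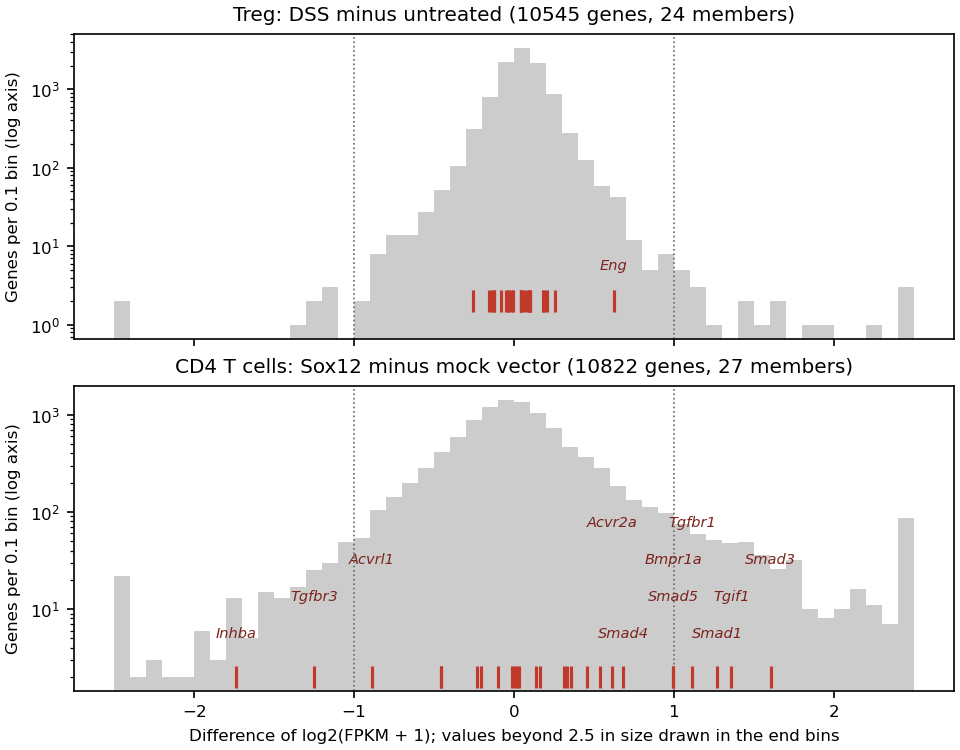
Difference of log2(FPKM + 1) for all genes past the filter as grey bars (number of genes per bin, log axis) and for the members as red ticks, for the DSS experiment (top, 24 members) and the vector experiment (bottom, 27 members), with dotted lines at a difference of 1 in size. Members more than 0.6 in size are named. In the DSS panel all members except Eng lie within 0.26 of 0, and in the vector panel they spread from -1.74 for Inhba to 1.60 for Smad3.

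In splenic Treg the same system was nearly level between the untreated and the DSS library. Of the 24 members with a row, all passed the filter, and the largest difference was that of Eng, with 2.37 FPKM without treatment and 4.19 FPKM after DSS. No member was at least 2 times higher (0.19% of the 10545 genes past the filter) or lower (0.0759%). With a rule of 1.5 times, Eng alone was higher (0.872% of all genes) and none was lower (0.446%). Eng did not pass 1.5 times with a pseudocount of 5, with a filter of 5 FPKM or with the median of all genes set to 0. The count by direction was 13 higher and 11 lower, beside 66.1% of all genes higher. The median difference was 0.04 in the members and 0.05 in all genes, the members' median being -0.0074 (10 higher, 14 lower) once that of all genes is set to 0. The median size was 0.096 and 0.093. The 13 members without a row in this table, among them Inhba, Acvrl1 and Bmpr1a, were not analysed in Treg.

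**Figure D3:**
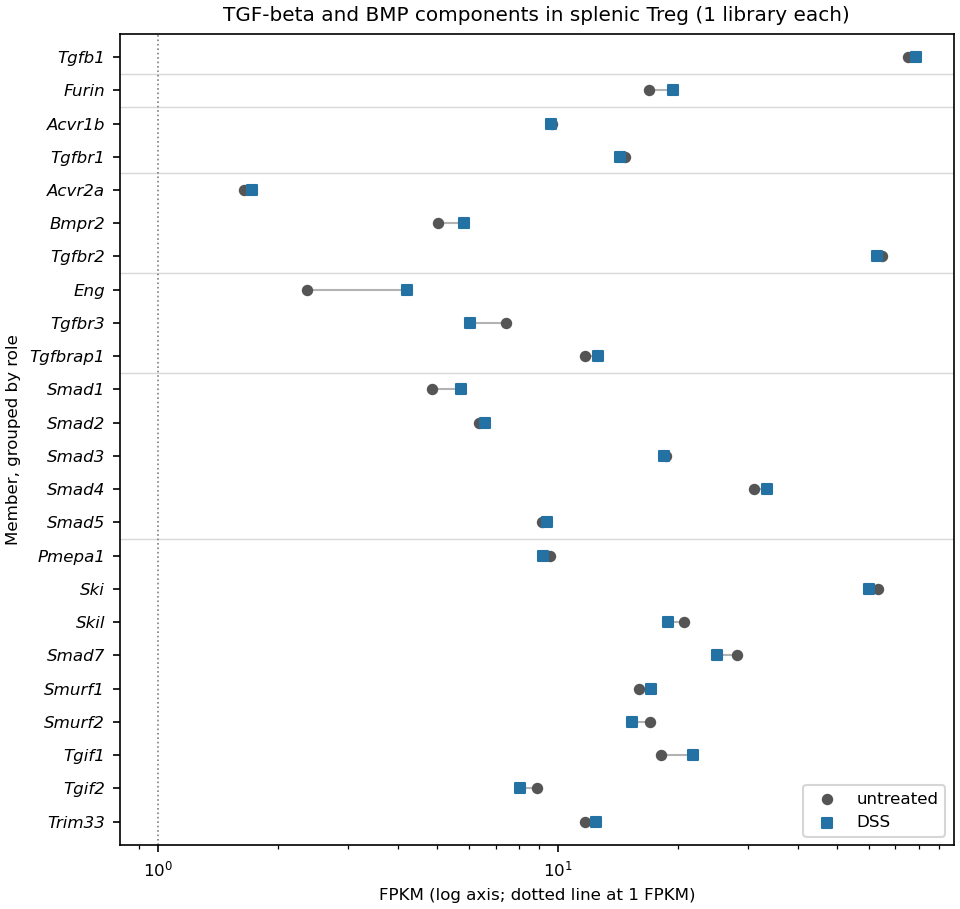
Level of the 24 members with a row in the DSS table, in FPKM (log axis), in untreated Treg (grey circles) and DSS Treg (blue squares), grouped by role, with 1 library each and a dotted line at 1 FPKM. The symbols nearly coincide for most members, and the widest gap is that of Eng at 2.37 and 4.19 FPKM.

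Ligand and receptors of TGF-beta were abundant in Treg. Tgfb1 had 75.2 FPKM without treatment and 78.7 FPKM after DSS, and Furin had 16.9 and 19.4 FPKM. Tgfbr2 had 64.9 and 63.1 FPKM and Tgfbr1 had 14.7 and 14.3 FPKM, so that Tgfbr2 stood at 4.41 and 4.40 times Tgfbr1. The activin and BMP receptors were lower in level. Acvr1b had 9.71 and 9.66 FPKM, Bmpr2 had 5.02 and 5.82 FPKM, and Acvr2a had 1.64 and 1.72 FPKM. Receptor levels thus kept their order between the libraries.

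Coreceptors showed the widest spread among Treg members. Eng, which binds TGF-beta and BMP9 complexes and is known from endothelium, monocytes and red cell precursors, had 2.37 FPKM without treatment and 4.19 FPKM after DSS (ratio 1.77, difference 0.62), and ranked 77 from the highest among 10545 genes. Tgfbr3 had 7.42 and 6.05 FPKM (ratio 0.815, difference -0.26), the lowest difference of the 24. Tgfbrap1 had 11.7 and 12.6 FPKM. Markers of other cells differed in both directions. All 5 NK and CD8 markers past the filter were lower with DSS, as were 5 of 6 plasma cell markers, where 66.1% of all genes were higher. All 11 erythroid markers with a row were higher with DSS, with a summed level of 536 and 822 FPKM, and the 5 of 7 basophil and mast cell markers past the filter were higher as well, with a sum over the 7 of 9.03 and 31.4 FPKM. Of 4 macrophage and monocyte markers 3 were higher (Fcer1g 1.84, Tyrobp 1.24 and Cd68 1.13 times) and Lyz2 was lower at 8.30 and 6.36 FPKM, with a sum of 16.3 and 16.8 FPKM and a median difference of 0.19. Of the endothelial markers Pecam1 alone had a row, at 48.5 and 46.7 FPKM. The part of these cells in the level of Eng was not tested.

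The Smads of Treg differed by less than 1.5 times. Smad4 had 31.1 FPKM without treatment and 33.3 FPKM after DSS, and Smad3 had 18.6 and 18.5 FPKM. Smad5 had 9.14 and 9.43 FPKM, Smad2 had 6.35 and 6.58 FPKM, and Smad1 had 4.84 and 5.74 FPKM (ratio 1.18). Of the inhibitors, Ski had 63.4 and 60.0 FPKM, Smad7 had 28.1 and 25.1 FPKM, and Skil had 20.7 and 18.9 FPKM. The inhibitors Smad7, Ski, Skil, Tgif2, Smurf2 and Pmepa1 were all slightly lower with DSS, with ratios from 0.892 for Smad7 to 0.961 for Pmepa1. Tgif1, at 18.1 and 21.8 FPKM (ratio 1.21), was higher, as were Smurf1 (16.0 and 17.2 FPKM) and Trim33 (11.7 and 12.5 FPKM). Tgif2 had 8.87 and 8.07 FPKM, Smurf2 had 17.0 and 15.4 FPKM, and Pmepa1 had 9.57 and 9.19 FPKM.

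Set side by side, 23 members passed the filter in both experiments, which share no sample. Of these, 10 were higher in both and 4 lower in both, while 7 were lower with DSS and higher with Sox12 and 2 were the reverse. The 4 shares were 43.5%, 17.4%, 30.4% and 8.70% of the members, and 32.7%, 18.0%, 15.7% and 33.5% of the 9958 genes past both filters. No link between the experiments is read from these counts. Tgif1 and Smad1 were the members after Eng with the highest differences in the DSS comparison (0.26 and 0.21). They ranked 824 and 1344 from the highest among 10545 genes there. Both were higher by the 2 times rule with Sox12. Smad3 and Tgfbr1 also passed that rule with Sox12 but were slightly lower with DSS (-0.014 and -0.034). Tgfbr3 was the lowest member past the filter in both experiments in the DSS comparison (-0.26) and the lowest of the 23 with Sox12 (-1.25). The Treg differences are small, and with 1 library per group their size cannot be set against replicate error.

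Other genes of the pathway were taken from 9 lists of 158 genes. In the vector experiment 85 of them passed the filter, 51 (60.0%, against 48.9% of all genes) were higher and 34 lower, with 16 (18.8%, against 4.85% of all genes) higher and 5 (5.88%, against 1.91%) lower by the 2 times rule, and the median difference was 0.08. In the DSS experiment 82 passed, 52 (63.4%, against 66.1% of all genes) were higher and 30 lower, and the median was 0.04. None passed the 2 times rule. Plaur, with 0.369 FPKM untreated and 1.69 FPKM after DSS, lay just under it at 0.97. It passed the filter through the DSS library alone. Among other ligands, Bmp7 had 0.344 FPKM in mock-vector cells and 3.66 FPKM in Sox12-vector cells, and Gdf11, an activin-like ligand, had 1.95 and 5.19 FPKM. In Treg, Bmp7 had 2.72 and 3.22 FPKM and Gdf11 had 4.56 and 5.72 FPKM. Of 28 other ligands these 2 passed the filter in each experiment.

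Nrp1, a semaphorin receptor that also binds TGF-beta, had 23.6 FPKM in mock-vector cells and 5.94 FPKM in Sox12-vector cells, and was level in Treg at 32.6 FPKM in both libraries. Twsg1, a secreted BMP modulator, had 13.9 and 26.6 FPKM in the vector experiment and 22.6 and 23.1 FPKM in Treg. In the list of latency, activation and precursor cleavage, 12 genes passed the filter in the vector experiment. By the 2 times rule 3 were higher and 2 lower, beside 4.85% and 1.91% of all genes. Itgb3, an integrin subunit that pairs with Itgav, had 9.42 and 24.2 FPKM. The proteases Mmp14 (0.262 and 2.30 FPKM) and Bmp1 (0.0487 and 2.06 FPKM) were also higher, and both, like Bmp7, passed the filter through the Sox12 library alone. Tgm2, a transglutaminase that crosslinks the latent complex to matrix, had 62.2 and 6.38 FPKM, and the integrin subunit Itgb5 had 5.18 and 1.84 FPKM. Lrrc32, which holds latent TGF-beta on the Treg surface, had 32.1 and 33.0 FPKM in the vector experiment and 17.2 and 13.8 FPKM in Treg.

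Cofactors and turnover enzymes of Smads were mostly level. Of 34 past the filter in the vector experiment 18 were higher and 16 lower (median 0.01), beside 48.9% of all genes higher. The ubiquitin ligase Nedd4l, which acts on Smad2 and Smad3, had 1.42 FPKM in mock-vector cells and 4.70 FPKM in Sox12-vector cells. The deubiquitinase Usp11 had 2.10 and 5.56 FPKM, and the phosphatase Ctdspl, which passed through the mock library alone, had 2.44 and 0.654 FPKM. Of 13 genes of TAK1 and other non-Smad steps none passed the 2 times rule, and 6 were higher and 7 lower. Rhoa and Tab2, the most abundant, had 189 and 172 FPKM and 63.7 FPKM in both libraries. The kinase Mapk8 (5.29 and 10.7 FPKM, difference 0.89) and the adaptor Traf4 (22.4 and 43.2 FPKM, difference 0.91) lay just under the rule, and the kinase Rock2 had 16.7 and 11.2 FPKM. In Treg the cofactor list was higher in 24 of 32 cases and the non-Smad list in 11 of 13, beside 66.1% of all genes. The medians were 0.06 and 0.05, next to 0.05 for all genes.

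Among 9 genes past the filter of those TGF-beta is known to induce, 6 were higher and 3 lower with the Sox12 vector, with a median of 0.62. Of all genes 48.9% were higher in this comparison, with a median of -0.01. Cdkn2b, a cell cycle inhibitor, had 3.17 and 13.0 FPKM, and Tsc22d1 had 2.96 and 7.72 FPKM. Of 11 genes that TGF-beta is known to repress in T cells, 9 were also higher and 2 lower (median 1.499), among them Gzma (2.35 and 57.2 FPKM), Ifng (41.3 and 191 FPKM), Prf1 (30.3 and 135 FPKM) and Gzmb (708 and 2735 FPKM). Gzma, Prf1 and Eomes of this list are also in the NK and CD8 marker list. Id3, a target of BMP signalling that also stands in the repressed list, had 12.3 and 41.9 FPKM. In Treg the induced genes had a median of 0.10 (5 higher, 4 lower), with Nt5e at 36.7 and 39.5 FPKM. The repressed genes had a median of -0.14 (2 higher, 8 lower) there, with Myc at 36.6 and 31.0 FPKM and Gata3 at 38.8 and 40.7 FPKM. Of all genes 66.1% were higher with DSS, with a median of 0.05. Il2, the repressed gene that was lower by the 2 times rule with Sox12, had 35.1 and 8.40 FPKM in the vector experiment. In Treg, Id2 had 58.1 and 51.9 FPKM and Id3 had 24.7 and 24.5 FPKM.

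**Figure D4:**
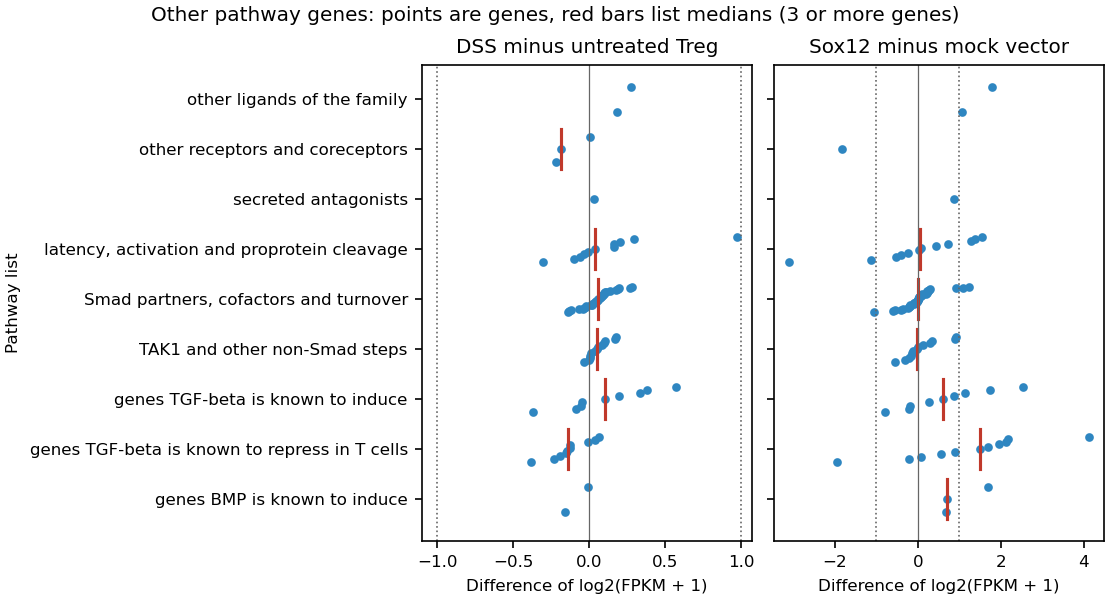
Difference of log2(FPKM + 1) of each gene past the filter in 9 pathway lists (points), with list medians as red bars where at least 3 genes passed, for DSS minus untreated Treg (left) and Sox12 minus mock vector (right), dotted lines at a difference of 1 in size and a different scale in each panel. The Treg points lie inside the dotted lines, and in the vector panel the induced and the repressed lists both have their medians above 0, at 0.62 and 1.499.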

How the data were processed

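RNA was sequenced from 4 mouse T cell libraries in 2 experiments. Libraries were strand-specific, per the labels' protocols, and the submitters' processing notes name Cufflinks and build mm9. The aligner, the annotation and the strand setting were not given in the sources used here. The authors deposited linear FPKM for Treg with their fold change, a ratio of DSS to untreated (recomputed within a relative 0.000449), and log2(FPKM + 1) values with a log2 fold change for the vector libraries (recomputed within 5e-10). The values themselves gave that scale, and they were turned back to FPKM. Names turned into dates by a spreadsheet were left out (16 and 25 rows, at most 0.263% of the summed FPKM).

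Changes are differences of log2(FPKM + 1) between treated and control, a scale that understates changes of low genes. The filter kept genes averaging 1 FPKM or more over both libraries, and no test was run. Named genes are all members and, per pathway list, up to 4 genes past 2 times or else the 2 most abundant. Lrrc32, Plaur, Smad9, Itgb5, Il2, Mapk8, Traf4, Rock2 and some cell type markers were named outside this rule, after their values were seen. Beside the 9 pathway lists, 13 cell type lists served as checks: T cell, Treg, NK and CD8, B, plasma, macrophage, dendritic, neutrophil, basophil, erythroid, platelet, endothelial and fibroblast. The members and lists were chosen with earlier results of these data known.

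The depth estimate for the vector libraries uses the commonest step in FPKM times length among 7560 genes with a single transcript in GENCODE vM21 (19 and 21 genes at that step, so it rests on few genes). The low values of both libraries gave 1.05 times as many fragments with Sox12. Fragments of a member use the median length of its coding transcripts, and intervals are exact 95% binomial (Clopper-Pearson) intervals of the split of fragments. At 1 FPKM in a 2 kb transcript the counting error was about 10.9% and 10.5%.

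Promoter sequences are from RefSeq on GRCm38.p6, another build than the authors', and are tied to the values by symbol alone. In 34 of 39 member windows the bases after the start occurred in a GENCODE transcript of the gene. Scripts ran in Python 3.11.15 with pandas 2.3.3, numpy 2.4.6, scipy 1.17.1 and matplotlib 3.10.9.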

Additional observations from a re-analysis of the deposited data

How the results depend on the processing

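No paired analysis was possible because each group has 1 library, and for the same reason no replicate could be left out. Counts below are for higher and lower in that order. In the vector experiment a pseudocount of 0.1 gave 7 members at least 2 times higher (adding Bmpr1a, Smad5 and Acvr2a) and moved Acvrl1 past the rule, with all genes at 335 lower instead of 207. A pseudocount of 5 left 2 and 1 members (Smad3, Tgif1 and Inhba), with 4 at least 1.5 times higher, and 222 and 94 of all genes at 2 times and 642 and 337 at 1.5 times. With a mean of at least 5 FPKM, which removes Tgfbr3, 1 member was at least 2 times lower, 5 and 1 members passed 1.5 times, the median was 0.32, and 322 genes were 2 times higher and 709 and 488 passed 1.5 times. Setting the median change to 0, or equal totals without the 20 highest genes, brought Bmpr1a and Smad5 past the rule. Smad3, Tgif1 and Inhba passed it under all 7 alternatives. In Treg, Eng fell short of 1.5 times with a pseudocount of 5, the 5 FPKM filter and the median set to 0 (0 members each), and the last turned the members' median to -0.0074 (10 higher, 14 lower). All genes at 2 times numbered 39 and 20 with a pseudocount of 0.1, 6 and 3 with 5, and 8 and 2 with the 5 FPKM filter, and at 1.5 times 191 and 86, 24 and 19, and 50 and 23. With the 75th percentiles made equal, 15 of 27 members were higher with Sox12. No member past 2 times changed sign. Low members (Smad6, Ltbp1, Tgfb2) rest on too few fragments for a comparison.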

Other observations

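The remaining marker lists of other cell types had the following summed levels. B cell markers summed to 8.67 and 9.15 FPKM in untreated and DSS Treg and to 2.39 and 3.02 FPKM with the mock and Sox12 vectors. Plasma cell markers summed to 360 and 308 FPKM in Treg, mostly through Igj, and to 244 and 132 FPKM in the vector experiment, mostly through Xbp1. The granule genes of neutrophils and their precursors summed to 20.2 and 29.2 FPKM in Treg and to 0.343 and 1.05 FPKM in the vector experiment, where S100a8, S100a9, Elane and Camp were at 0 in both libraries. Platelet markers summed to 0.2502 and 0.627 FPKM there, with Pf4, Ppbp and Treml1 at 0, and in Treg Itga2b alone had a row, at 0.878 and 1.401 FPKM. Dendritic cell markers summed to 0.823 and 1.03 FPKM in Treg and 3.27 and 3.51 FPKM in the vector experiment, in both through Zbtb46. Fibroblast markers had no row in the Treg table and summed to 2.14 and 1.93 FPKM with the vectors, with Col3a1 at 0. In the vector experiment basophil markers summed to 0.778 and 0.667 FPKM and erythroid markers to 313 and 208 FPKM, mostly through Tfrc, which dividing T cells also express. NK and CD8 markers summed to 33.7 and 29.1 FPKM in Treg. Treg identity genes summed to 544 FPKM in both Treg libraries and to 1219 and 1108 FPKM with the vectors, where Il2ra (629 and 568 FPKM) and Tnfrsf18 (330 and 183 FPKM) were lower but 5 of the 8 genes were higher with Sox12 (median difference 0.15).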
